A study of Mus musculus with 8 samples.

Results

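The regions examined were those of Prdm16 and 4 genes whose products work with or resemble it, Mecom, Ehmt1, Ctbp1 and Ctbp2, in an ATAC-seq peak list from mouse brown fat. A summit, the position of the highest signal in a peak of open chromatin, was taken as a member when it fell inside 1 of the 5 genes or at most 50 kb from the transcription start site (TSS) of a curated RefSeq mRNA of that gene. This rule took 46 of the 32173 summits in the list: 33 at Prdm16, 6 at Mecom, 4 at Ehmt1, 2 at Ctbp1 and 1 at Ctbp2. ATAC-seq libraries came from brown adipose tissue (BAT), 2 from WT and 2 from Dot1L-BKO mice. The Dot1L-BKO mice carried floxed Dot1l alleles and Cre driven by the Ucp1 promoter, so that deletion was directed to Ucp1-expressing brown adipocytes while the nuclei came from the whole tissue, and the WT mice were floxed littermates. All mice were fed chow to 12 weeks of age and were kept at 4°C for 4 hr before BAT was taken. The 4 libraries gave 1 shared list in which each peak has a single score, the −log10 of its MACS2 q-value. The list is named for WT against Dot1L-BKO libraries, and which served as treatment or control in peak calling is not known here. If the Dot1L-BKO libraries were the control, each score would measure WT signal over Dot1L-BKO signal, and not openness in the tissue as such, and an absent summit would not mean closed chromatin. There was no value per library, so the values below carry no replicate error, no test between WT and Dot1L-BKO was made, and the read depth is unknown.

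Prdm16 is a zinc finger protein with a PR domain that drives brown fat fate and represses genes of other lineages. Mecom encodes Prdm3, its closest relative in the PRDM family. Ehmt1 is a histone H3 lysine 9 methyltransferase that Prdm16 recruits, and Ctbp1 and Ctbp2 are corepressors that bind a short motif in Prdm16 and lack DNA binding of their own. These proteins act at the enhancers and promoters of their target genes, and the summits described here are at the genes that encode them.

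Promoter summits, meaning summits within 1 kb of a TSS, were counted at marker genes of brown adipocytes and of other cells. All 10 marker genes of brown adipocytes, of which Adipoq, Pparg and Fabp4 mark adipocytes in general, had a promoter summit, beside 45.2% of all genes, with scores from 6.02 at Dio2, Cox8b and Adipoq to 61.5 at Cidea, and 33.7 at Ucp1. Of the markers of other cells, 1 of 4 endothelial genes (Cdh5, 2.59), 1 of 4 macrophage genes (Cd68, 2.15), 1 of 3 fat progenitor genes (Pdgfra, 4.16) and 0 of 5 skeletal muscle genes had one. In bulk tissue, fewer open cells of a type and less signal per cell cannot be told apart. If the Dot1L-BKO libraries were the control, a missing summit could also mean like signal in both genotypes. Which of these holds was not tested.

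The sequences of 8 member summits, each with 100 bp on both sides, are given here from the GRCm38 (mm10) RefSeq genome, on the minus strand, which is the coding strand of all 5 genes. Capitals mark matches on either strand to 1 of 12 short motifs, which are spelled out beside their counts further on. The first 3 are the Prdm16 summits with the highest scores, all more than 20 kb from its promoter, and the next is the Prdm16 promoter summit. They lay at chr4:154536348-154536548, chr4:154662820-154663020, chr4:154530518-154530718 and chr4:154636951-154637151.
Prdm16 +100.4 kb, score 35.8: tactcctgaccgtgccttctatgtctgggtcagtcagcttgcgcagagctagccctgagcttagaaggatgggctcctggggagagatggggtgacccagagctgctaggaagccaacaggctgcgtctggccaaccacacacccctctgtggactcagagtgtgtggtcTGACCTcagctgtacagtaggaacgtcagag
Prdm16 -26.0 kb, score 27.7: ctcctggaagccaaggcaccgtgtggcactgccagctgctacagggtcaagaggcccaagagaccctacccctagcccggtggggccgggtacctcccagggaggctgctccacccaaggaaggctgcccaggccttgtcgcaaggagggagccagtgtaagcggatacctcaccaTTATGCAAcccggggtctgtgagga
Prdm16 +106.3 kb, score 23.8: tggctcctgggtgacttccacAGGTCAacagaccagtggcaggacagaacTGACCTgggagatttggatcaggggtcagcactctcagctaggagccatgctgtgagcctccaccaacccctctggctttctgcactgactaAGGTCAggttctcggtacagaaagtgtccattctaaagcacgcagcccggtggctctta
Prdm16 promoter, score 8.65: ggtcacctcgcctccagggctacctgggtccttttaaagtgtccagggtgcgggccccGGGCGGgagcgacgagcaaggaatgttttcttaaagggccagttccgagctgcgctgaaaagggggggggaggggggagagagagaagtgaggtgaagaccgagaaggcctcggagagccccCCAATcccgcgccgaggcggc

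The other 4 sequences stand for the partner genes. They are the promoter summits of Ehmt1, Ctbp1 and Ctbp2 and, since Mecom had none, the Mecom summit with the highest score outside masked repeat sequence. They lay at chr2:24918825-24919025, chr5:33274203-33274403, chr7:133124241-133124441 and chr3:30019549-30019749.
Ehmt1 promoter, score 3.75: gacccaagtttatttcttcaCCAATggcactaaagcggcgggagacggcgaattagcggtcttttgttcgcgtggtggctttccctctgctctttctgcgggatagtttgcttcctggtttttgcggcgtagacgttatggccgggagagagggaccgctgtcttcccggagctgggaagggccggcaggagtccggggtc
Ctbp1 promoter, score 10.4: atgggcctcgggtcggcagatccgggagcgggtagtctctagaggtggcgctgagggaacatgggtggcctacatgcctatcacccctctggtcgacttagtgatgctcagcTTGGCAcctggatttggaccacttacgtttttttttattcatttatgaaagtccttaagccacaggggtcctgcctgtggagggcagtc
Ctbp2 promoter, score 5.55: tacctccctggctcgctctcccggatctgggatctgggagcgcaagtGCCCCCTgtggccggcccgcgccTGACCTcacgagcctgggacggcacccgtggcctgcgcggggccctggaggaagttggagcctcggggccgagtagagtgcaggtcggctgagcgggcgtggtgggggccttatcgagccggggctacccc
Mecom -6.4 kb from variant 1, score 5.0: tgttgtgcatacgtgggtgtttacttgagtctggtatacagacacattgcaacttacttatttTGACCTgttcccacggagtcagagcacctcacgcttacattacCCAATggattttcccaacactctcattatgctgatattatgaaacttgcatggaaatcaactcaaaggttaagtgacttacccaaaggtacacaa

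The 5 regions differed widely in how many summits they held. Prdm16 held 33 of the 46, and only 134 of 21000 genes with a curated mRNA (0.638%) had as many or more, against a median of 2.00 summits over all genes. As many summits as at Mecom were found at 22.9% of genes, as many as at Ehmt1 at 33.2% and as many as at Ctbp1 at 54.1%. A summit by this rule, the single one at Ctbp2 included, was found at all 5 members and at 72.5% of all genes. Counts were also set against length. Per 100 kb of region, Prdm16 had 8.90 summits, Ehmt1 2.24, Ctbp1 2.00, Mecom 0.986 and Ctbp2 0.480, beside a median of 1.66 over all genes. A density as high as that of Prdm16 was found at 13.5% of genes, and one as high as that of Mecom at 64.7%.

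**Figure D1:**
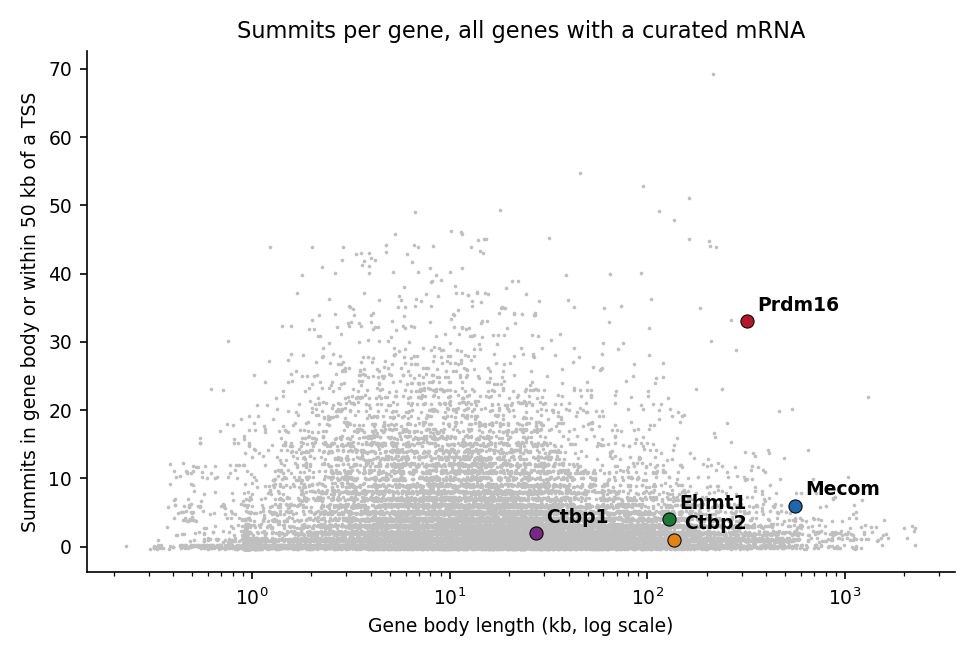
Summits per gene by the same rule as for the members (vertical axis, with a small vertical jitter for display) against gene body length in kb (horizontal axis, log scale), with 1 grey point for each of 21000 genes and the 5 members in colour. Prdm16 sits at 33 summits, far above most genes of its length, and the other members sit at 6 or fewer.

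Among the 940 genes with a gene body of at least 200 kb, Prdm16 ranked 7 by summits per 100 kb of gene body, with 8.42 against a median of 0.284. It ranked 6 by count, with 27 summits in its gene body. Long genes with a higher density included Tns1 (31.3 per 100 kb), Sh3pxd2a (21.1), Zmiz1 (20.2) and Ctif (12.4). Mecom, the longest member, ranked 136 by density with 1.07 per 100 kb, above the upper quartile of 0.638 among these long genes. Prdm16 and Mecom, close relatives by protein, thus stood far apart in the list, both per gene and per length, though both were in the denser part of the long genes.

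The scores of the member summits were mostly modest. Their median was 4.16 (95% order-statistic interval 3.32 to 5.55, counting error only), beside 5.0 over the whole list, whose quartiles were 3.05 and 9.39. A score of at least 10 was reached by 6 of the 46 (13%), whereas 23.5% of all summits reached it. Fewer member summits were near a start site: 7 of 46 (15.2%) lay within 1 kb of the TSS of any gene, against 32.2% of the list. The median score in the list was 8.65 near a TSS and 4.16 farther away. Among summits more than 1 kb from a TSS, the members' median was 4.04, close to that of the list. In this class 4 of 39 member summits (10.3%) and 14.4% of the list had a score of at least 10. All 46 shared their exact score with at least 1 other summit, since the list holds 2606 distinct scores, so an order between close scores carries little.

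**Figure D2:**
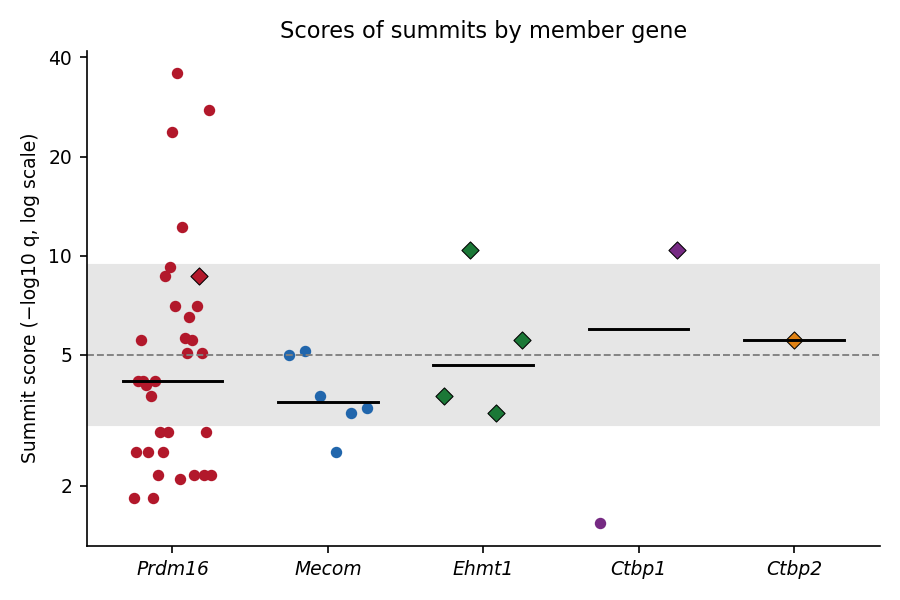
Score of each member summit (−log10 q, log scale) by gene, with diamonds for summits within 1 kb of the TSS of any gene and a short black line for the median of each gene. The dashed line is the list median of 5.0 and the edges of the grey band are the list quartiles of 3.05 and 9.39. The Prdm16 summits run from 1.83 to 35.8, and the 6 Mecom summits sit between 2.53 and 5.12.

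Prdm16 lies on the minus strand of chromosome 4 from 154316125 to 154636873 (mm10), and its 4 curated variants share 1 TSS. The promoter summit lay at 154637051, upstream of that TSS (-178 bp) and 309 bp into predicted transcripts that start farther upstream. Its score was 8.65, equal to the median of 8.65 over all summits within 1 kb of a TSS and shared by 717 summits. Other summits stood on both sides of it, 1 at +1598 bp in intron 1 (score 7.05), 1 at -1053 bp (5.07) and 1 at -1628 bp (2.15). The summit at -1053 bp lay 346 bp into Prdm16os, a noncoding RNA transcribed away from Prdm16. The 10 kb around the TSS thus held 4 summits, none with a score of 10 or more.

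The highest scores at Prdm16 were found away from its promoter. Of its 32 other summits, 5 scored above the promoter summit. At least 1 such farther summit scored higher at 2597 of the 9485 genes with a promoter summit (27.4%). Only 6483 of those genes had any farther summit, and a gene with many, as Prdm16, has more occasions for a higher one. The highest, 35.8, was at 154536448 in intron 1 of 16, 100425 bp downstream of the TSS, and ranked 1176 in the list. The next, 27.7, was at 154662920 in intergenic sequence upstream of Prdm16 (-26047 bp). Actrt2, an actin-related gene, has its TSS closer to this summit, at 4947 bp. A score of 23.8 was found at 154530618, again in intron 1, at +106255 bp. The other 2 above the promoter were at +89144 bp in intron 1 (12.2) and at +109405 bp in intron 2 (9.21). Of these 5 summits, 4 therefore fell in the stretch from 89.1 to 109.4 kb inside the gene.

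That stretch held most of the high scores of the locus. Between 89.1 and 109.4 kb from the TSS, 6 summits with a summed score of 90.1 lay within 25 kb. As many lay together near the 3′ end, between 299.9 and 315.2 kb, with scores of at most 5.55, and the 10 kb around the TSS held more summits for its length. From 80 to 160 kb into the gene there were 12 summits, 15.0 per 100 kb, of which 3 scored at least 10. The stretch before it, from 5 to 80 kb, held 5 summits with scores up to 6.53, and the one after it, from 160 to 240 kb, held 3 with scores up to 3.75. The rest of the gene, toward the 3′ end, held those 6. The widest interval without a summit was 76.6 kb, from 223.3 to 299.9 kb, while the median gap was 5727 bp.

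**Figure D3:**
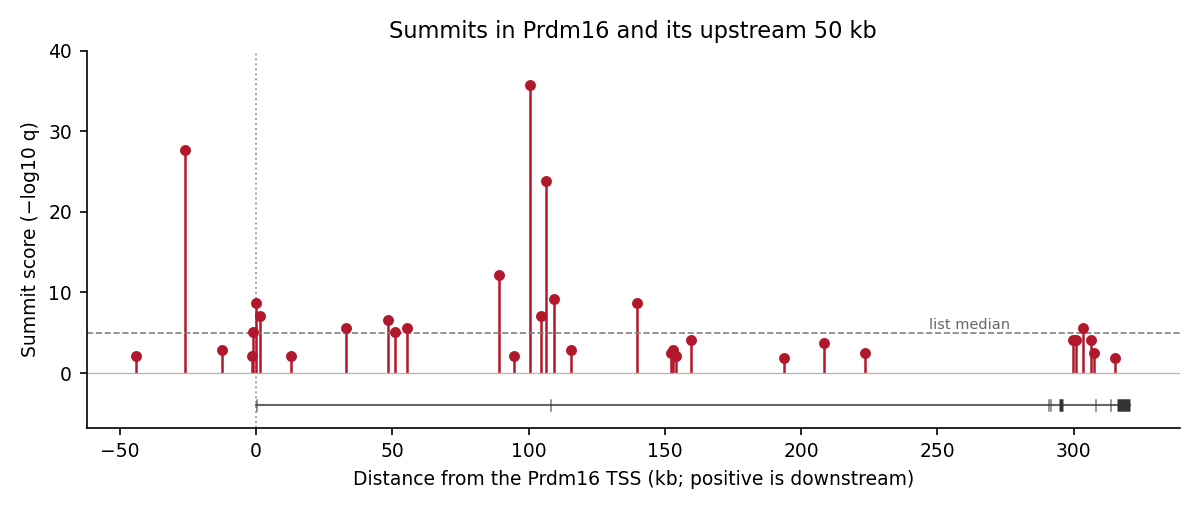
Map of the 33 Prdm16 summits, with distance from the curated TSS in kb on the horizontal axis (positive into the gene) and score (−log10 q) as stem height, above a bar that shows the gene body and its exons. The dashed line is the list median of 5.0, and the tallest stems are at +100.4 kb (35.8), -26.0 kb (27.7) and +106.3 kb (23.8).

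All 27 summits in the Prdm16 gene body were intronic, and 6 lay upstream. A noncoding RNA gene inside Prdm16, Gm13133, had its nearest summit upstream of its TSS (-2553 bp), the one with a score of 12.2. The predicted internal start sites of Prdm16, at 154359952 and 154358960, had no summit within 21 kb. For 22 of the 33 summits the nearest curated TSS was that of Prdm16, for 9 it was that of Arhgef16, which lies beyond the 3′ end, and for 2 that of Actrt2. A summit near or in a gene need not act on it, and the target of these summits was not tested. No Prdm16 summit lay mostly in masked repeat sequence, beside 9.98% of the list.

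Mecom spans 558 kb of chromosome 3, from 29951296 to 30509759 on the minus strand, and has start sites for a long protein with the PR domain and for a shorter one without it. The long form (variants 3 to 5, 1232 to 1242 codons) starts at 30509759, and variant 1, of 718 codons, starts at 30013204. Neither start had a summit within 1 kb. The nearest to the long form was at 30508232, in intron 1 and 1527 bp downstream of that start, scoring 3.44. The nearest to variant 1 was at 30019649, upstream of it (-6445 bp), with a score of 5.0, and lay upstream of a predicted noncoding RNA, Mecomos (-291 bp). The other 4 Mecom summits, all intronic like these, had scores of 5.12, 3.75, 3.32 and 2.53. The one with 5.12 lay entirely in masked repeat sequence, where short reads are hard to place. None of the Mecom summits scored 10 or more, and 4 of 6 were below the list median.

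**Figure D4:**
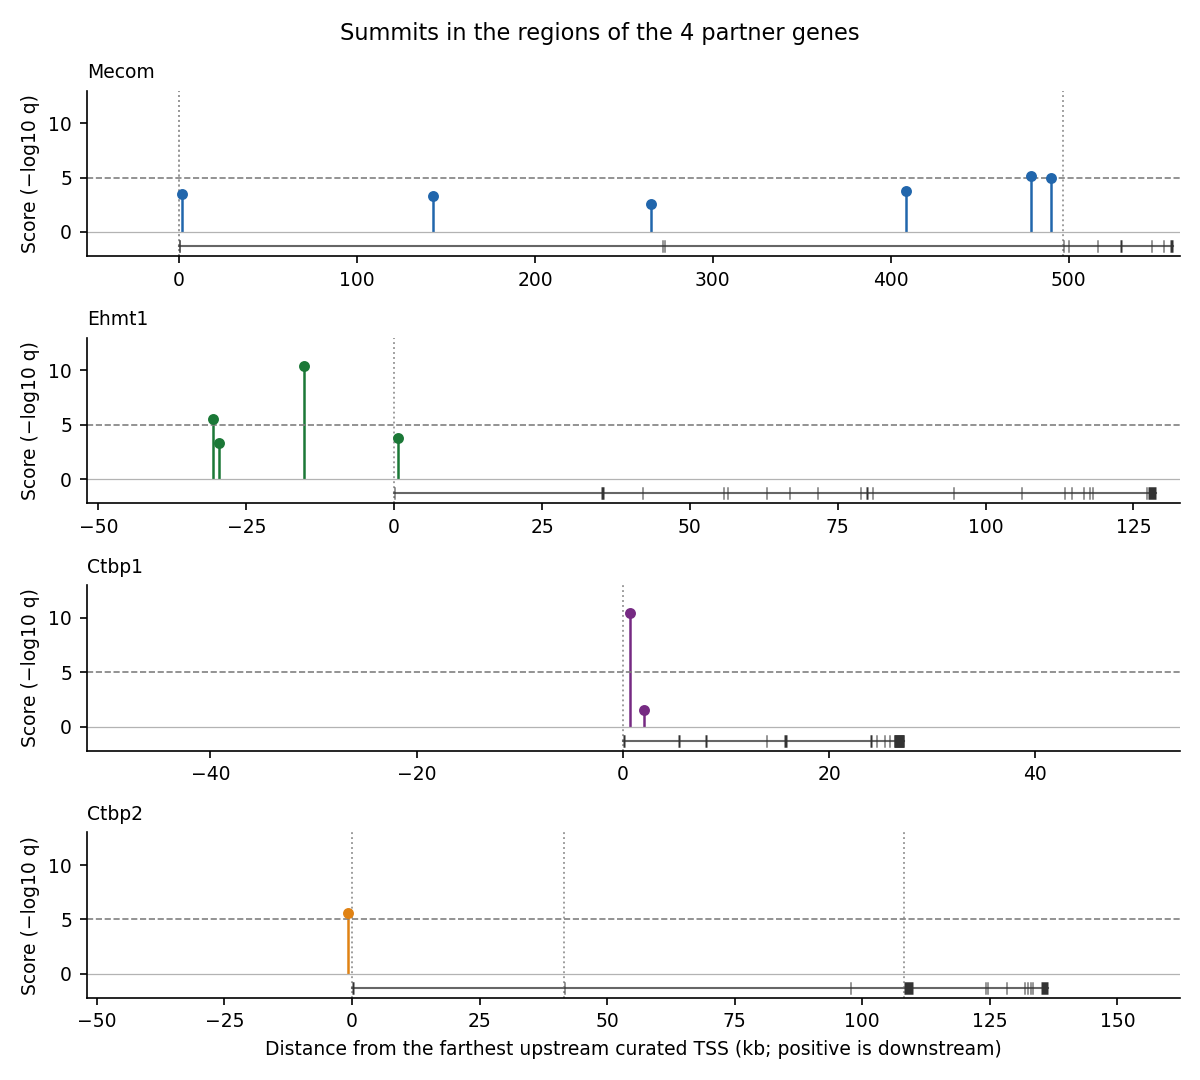
Maps of the summits at Mecom, Ehmt1, Ctbp1 and Ctbp2, with distance in kb from the farthest upstream curated TSS of each gene on the horizontal axis (positive into the gene) and score (−log10 q) as stem height, above a bar with the gene body and its exons. Dotted lines mark the curated start sites and the dashed line the list median of 5.0, and the tallest stems are those with a score of 10.4 at Ctbp1 and in the Ehmt1 region.

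Ehmt1, the methyltransferase, spans chromosome 2 from 24790769 to 24919609 on the minus strand. Only 1 of the 4 summits in its region lay in the gene, at 24918925, in intron 1 of 26 and 684 bp downstream of the Ehmt1 TSS, scoring 3.75. The others lay at the start sites of neighbouring genes. A summit with a score of 10.4 was 417 bp into Arrdc1, an arrestin-related gene, and Zmynd19 had summits at -471 bp (3.32) and +169 bp (5.54). The higher scores of this region were therefore those nearest to other genes, and over the 5 members 32 of 46 summits had a member's own TSS as the nearest. The Ehmt1 gene body, 129 kb in all, held no further summit.

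The corepressor genes had their summits at the start of the gene. Ctbp1, on chromosome 5 from 33247723 to 33275004, had 1 summit in intron 1 of 8, 701 bp downstream of the Ctbp1 TSS, that scored 10.4 and 1 at +2016 bp with a score of 1.54. The latter was among the lowest scores of the list, at rank 31516 of 32173. Ctbp2, on chromosome 7 from 132987011 to 133123483, had a single summit at 133124341 with a score of 5.55, upstream of the start of variant 2 (-858 bp) and of a predicted start (-332 bp). The same summit lay 786 bp downstream of the predicted start of Gm35364, a protein-coding gene on the other strand. That start is closer than the start of variant 2, so the summit cannot be assigned to Ctbp2 alone. The gene body of Ctbp2, 136 kb, held none. Variant 1, the 988-codon form known as RIBEYE from synapses, starts at 133015247, and its nearest summit was 84070 bp away and outside the region. Variant 3, of 420 codons, starts at 133081860, with no summit nearer than the one upstream at -42481 bp. Of the 3 curated Ctbp2 starts, only that of variant 2, of 445 codons, thus had a summit within 1 kb.

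Promoter summits were present at Prdm16, Ehmt1, Ctbp1 and Ctbp2, 4 of the 5 members, beside 45.2% of all genes. A promoter summit with a score of at least 10 was found at 1 of 5, Ctbp1, beside 23.5% of all genes. The position of these summits varied. At Prdm16 the distance was 178 bp, near the median of 143 bp over genes with a promoter summit, while at Ehmt1, Ctbp1 and Ctbp2 it was 684, 701 and 858 bp. A distance over 600 bp, a value chosen after the distances were seen, was found at 3 of 4 members and at 7.18% of the genes with a promoter summit. With predicted start sites included the distances were 601 bp at Ehmt1, 684 bp at Ctbp1 and -332 bp at Ctbp2, so that Ctbp2 no longer passed this value and Ehmt1 lay at its edge. With a window of 500 bp, Prdm16 was the only member with a promoter summit, so that the count of 4 rests on the 1 kb window.

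The 17 other genes of the Prdm16 complex and pathway included DNA-binding factors that Prdm16 joins (Cebpb, Pparg, Ppara, Ebf2, Zfp516), coactivators (Ppargc1a, Ppargc1b, Med1) and repressor subunits (Ehmt2, Kdm1a, Hdac1, Hdac2, Rcor1). Of these, 16 had a promoter summit (94.1%, all genes 45.2%) and 10 had one with a score of at least 10 (all genes 23.5%). Among the DNA-binding factors the promoter scores were 41.0 at Cebpb, 22.4 at Ppara, 19.1 at Pparg, 12.5 at Ebf2 and 7.58 at Zfp516. The coactivator genes had 20.8 at Ppargc1a, 9.21 at Ppargc1b and 6.02 at Med1. The region of Ppargc1b held 24 summits, and its highest score, 90.5, was away from the promoter. Among the repressor subunits the scores were 19.4 at Hdac2, 15.4 at Rcor1, 14.0 at Hdac1 and 5.07 at Ehmt2, the partner of Ehmt1 in its methyltransferase complex. Kdm1a, the histone demethylase, had no summit in its region at all. Ski, a corepressor of Smad signalling, had 44.9, and Smad3 had 10.9. Cul2 and Appbp2, which belong to the ubiquitin ligase that degrades Prdm16, had 4.19 and 9.78. The 8.65 at the Prdm16 promoter was below 12 of these 16 scores. By count Ppara came nearest to Prdm16, with 29 summits. Per 100 kb of region, where Prdm16 had 8.90, 6 genes of the list were denser. These were Cebpb (27.0), Ppara (23.9), Ski (17.7), Ppargc1b (15.1), Ehmt2 (12.9) and, with the smallest lead, Ppargc1a.

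**Figure D5:**
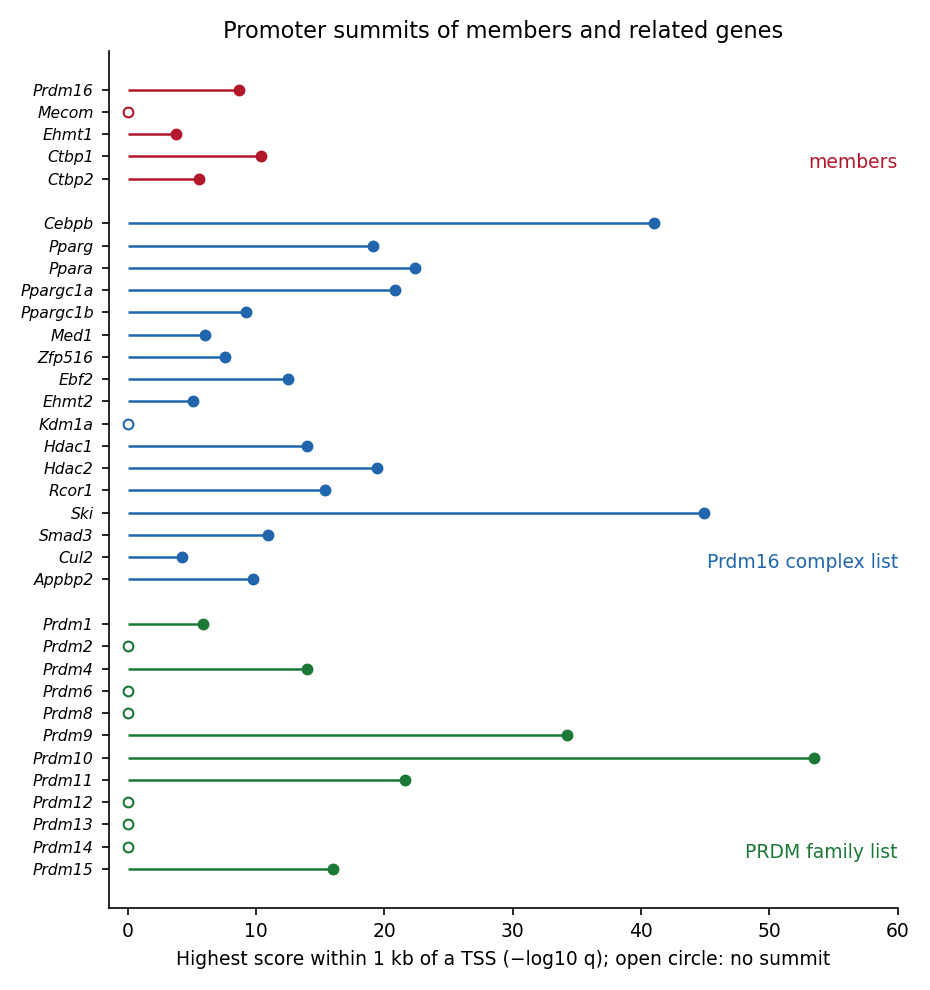
Highest score (−log10 q, linear scale from 0) within 1 kb of a TSS for genes of the member, Prdm16 complex and PRDM family lists, with an open circle at 0 for a gene without a promoter summit. Prdm16 (8.65) and Ctbp1 (10.4) sit within the range of the complex list, which runs from 4.19 at Cul2 to 44.9 at Ski.

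Of the 12 other genes of the PRDM family described here, proteins with a PR domain and mostly zinc fingers, 6 had promoter summits, a share near the 45.2% of all genes. The scores were 53.5 at Prdm10, 34.2 at Prdm9, 21.6 at Prdm11, 16.0 at Prdm15, 14.0 at Prdm4 and 5.87 at Prdm1. Prdm9, known for its role in meiosis, had no other mRNA start within 1 kb of its summit. Prdm2, Prdm6, Prdm8, Prdm12, Prdm13 and Prdm14 had no promoter summit, as Mecom had none, and Prdm6 and Prdm8 had none in the region. The region of Prdm16 held 33 summits, whereas those of the other family members described here held at most 15, at Prdm11. Per 100 kb of region the order of these was the reverse, with 11.4 at Prdm11 and 8.90 at Prdm16. By promoter score Prdm16 ranked below 5 of the 6 family members that had one.

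The sequence up to 100 bp on each side of every member summit, its window, was searched for 12 short motifs on both strands. A match is a run of letters and not evidence that a factor binds. At least 1 motif was found in 65.2% of member windows (95% Wilson interval 50.8 to 77.3) and in 70.6% of those of the list, a share inside that interval. AGGTCA, the repeat unit that receptors such as PPARγ and thyroid hormone receptor recognise, was in 11 of 46 windows (23.9%, interval 13.9 to 37.9) and in 15.2% of all windows in the list, a share inside that interval. With 50 bp on each side in place of 100 bp, 13% of member windows and 8.20% of the list held it. Among windows more than 1 kb from a TSS it was in 10 of 39 members (25.6%) and in 17.7% of the list. At Prdm16 it was in 8 of 33 windows. The Prdm16 summit at +106.3 kb held 3 of these units, as its capitals show. It was the 1 member window of 46 with 3 or more, beside 0.323% of the list. That minimum was taken from this window, so the share is no measure of how unusual it is. The summit at +100.4 kb, with the highest score, held 1.

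For the other motifs, CCAAT was in 8 member windows (17.4%, list 24.9%), those of the Prdm16 and Ehmt1 promoters among them. TTGGCA of NFI was in 6 (13%, list 10.9%) and GGGCGG of SP/KLF factors, a promoter motif, in 5 (10.9%, list 20.6%). More than 1 kb from a TSS, GGGCGG was in 7.69% of member windows and 9.07% of those of the list. TTGCNNAA of C/EBP factors was in 3 (6.52%, list 10.9%), 1 of them the upstream Prdm16 summit at -26.0 kb, and CACGTG, an E-box, was in 3 (6.52%, list 4.68%). AGGGGGC of CTCF was in 3 (6.52%, list 5.50%), 1 of them at the Ctbp2 promoter, and TGANTCA of AP-1 was in 2 (4.35%, list 6.40%). CCCNNGGG of EBF was in 1 (2.17%, list 15.7%), TGACGTCA, the CRE, in 1 (2.17%, list 1.03%), CCGGAAG of ETS factors in 1 (2.17%, list 5.38%) and GCGCATGC of NRF1 in 0 (upper Wilson bound 7.71%, list 1.37%). The letters of some motifs can overlap, as GGGCGG can with those of EBF or CTCF. The EBF share was the one furthest below that of the list, with an upper Wilson bound of 11.3%. This motif was singled out after the shares of all motifs were seen, and the bound makes no allowance for that choice. The bound also treats the 46 member windows as independent, though 33 of them are at Prdm16. Whether EBF matches are fewer at these genes than in the list was therefore not tested. The windows had a median GC content of 55.0%, and those of the list 56.2%.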

How the data were processed

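ATAC-seq was performed on BAT nuclei with the Nextera kit in 2 WT and 2 Dot1L-BKO mice. Reads were aligned by the authors with BWA (build mm10), who called peaks with MACS2 2.1.1 (q-value cutoff 0.05, fold enrichment cutoff 2.0). The single deposited list gives a summit position and a score, the −log10 of the q-value, for each peak. Its name sets WT against Dot1L-BKO libraries. Which of them entered peak calling as treatment or control is not given in the sources used here. It has no values per library, and the depth is unknown. The RNA-seq libraries were not analysed here.

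Summits were assigned to 21000 genes with a curated RefSeq mRNA on the same build, by gene body or within 50 kb of a TSS. Promoters were 1 kb on each side of a TSS, and motifs were searched in 100 bp on each side of a summit. The named genes were the 5 members, the Prdm16 complex and PRDM family lists, the 5 long genes with most summits per 100 kb, neighbouring genes and tissue markers. A few genes of these lists are not reported here. The members and lists were chosen with earlier results of these data known. Counts are descriptions, with no test. Intervals are order-statistic or Wilson and cover counting error only. Alternatives were a score minimum, other region, promoter and motif windows, merged summits and predicted mRNAs. Leaving out a replicate was not run, since the list has no values per library. With summit positions planted at 200 genes, the counts came back at 200 of 200. This checks the counting only, and not peak calling or sensitivity. Scripts ran in Python 3.11.15 with scipy 1.17.1, pandas 2.3.3, numpy 2.4.6 and, for plots, matplotlib 3.10.9.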

Additional observations from a re-analysis of the deposited data

How the results depend on the processing

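Of 37 alternative values for the main results, 29 stayed within 1.5 times the main value or within its interval, and 8 moved. With a score of at least 5 the members had 21 summits (1.43 per 100 kb), and with a score of at least 10 they had 6 (0.409 per 100 kb), in place of 46 (3.14 per 100 kb). Promoter summits were found at 1 member with a score of at least 10, at 1 with a window of 500 bp and at 2 with a window from 1 kb upstream to 100 bp downstream, in place of 4. With 50 bp on each side of a summit, 47.8% of member windows held a motif. Under the other region rules, and without the summits nearest to another gene or in masked repeat (both chosen after seeing the data), the count ran from 32 to 52 and the median score from 4.10 to 5.04. Of 86 values for single genes, lists and motifs, 60 stayed and 26 moved. No paired analysis was possible because each peak has 1 score for all 4 libraries, and leaving out a replicate was not run for that reason. Without depth, a missing summit says only that no peak passed the authors' cutoffs.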
